A study of Homo sapiens with 6 samples.

Results

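The genes described here are the 10 that trim peptides and load them onto MHC class I molecules, TAP1, TAP2, TAPBP, TAPBPL, ERAP1, ERAP2, LNPEP, CALR, CANX and PDIA3. They were chosen by name, with earlier results of these data known, and each matched 1 of the 19402 genes in the deposited table. All 10 passed the filter on low counts. The libraries held poly(A) RNA of CFPAC1, an established line from a human pancreatic ductal adenocarcinoma. The 3 IRF1-KO libraries came from pools of clones isolated by dilution after infection with the lentiCRISPRv2 vector, which carried wild-type Cas9 and a guide RNA against IRF1. The 3 WT libraries came from pools of clones isolated the same way after infection with lentiCRISPRv2, with no guide named. Both groups had therefore passed through infection and cloning, and the number of clones in a pool is not given in the sources used here. No interferon treatment is named for either group. The comparison asked whether genes dedicated to peptide trimming and loading, and the general chaperones that work with them, differed between IRF1-KO and WT pools.

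MHC class I molecules display peptides that the proteasome has cut in the cytosol. The peptides enter the endoplasmic reticulum through the TAP1-TAP2 transporter and are trimmed there by aminopeptidases. They are placed in the groove by a loading complex in which tapasin holds the class I molecule beside the transporter, with calreticulin and the oxidoreductase ERp57 bound to it. Transporter, tapasin and aminopeptidase genes are inducible by interferon, whereas calreticulin, calnexin and ERp57 fold glycoproteins in every cell. IRF1 is a transcription factor that binds interferon-stimulated response elements in promoters of this pathway.

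Total counts lay between 16413682 and 28258075 in IRF1-KO libraries and between 18394715 and 21003927 in WT libraries, and the 10 genes took 0.396% to 0.437% of the counts in each of the 6 libraries. IRF1 itself had 117, 123 and 132 CPM (counts scaled to the library total after TMM normalization) in IRF1-KO replicates 1 to 3, against 87.3, 91.3 and 82.6 CPM in WT replicates 1 to 3. Its level was above every WT value in all 3 libraries labelled IRF1-KO, with a log2 fold change of 0.51 ± 0.10 (SE). With Benjamini-Hochberg adjustment its p was 0.135 by edgeR's quasi-likelihood test and 0.00105 by DESeq2. Reads counted over all exons do not check a Cas9 edit, so the knockout rests on its label. All 8 epithelial markers looked at were present, with summed levels of 5028 to 7093 CPM in IRF1-KO and 4397 to 7628 CPM in WT libraries. WT replicate 3 had the lowest sum, 4397 CPM against 6838 and 7628 CPM in WT replicates 1 and 2. Its CDH1 level was 107 CPM, against 499 and 378 CPM in those 2 libraries. Of 8 leukocyte markers, 4 stayed under 1 CPM in every library, PTPRC, CD3E and NKG7 among them, and the other 4, CD68 and LYZ foremost, brought the sum to 143 to 179 CPM in IRF1-KO and 170 to 213 CPM in WT libraries. Of 8 fibroblast and endothelial markers, COL1A1, COL1A2 and PECAM1 reached 1 CPM in some library, and the sum was 35.8 to 77.5 CPM in IRF1-KO and 33.3 to 49.5 CPM in WT libraries.

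Promoter sequence is shown for the motifs found near the starts of 5 dedicated genes and of the chaperone genes CALR and CANX. RefSeq promoter windows on GRCh38.p14, from 250 bases before to 50 bases after a transcript start, were found for 9 of the 10 genes, all but PDIA3. The interferon-stimulated response element core, searched as GAAA, any 2 bases and GAAA on both strands, was in a window of TAP1, TAP2, TAPBP, ERAP1 and ERAP2, 5 of these 9 genes, and in windows of 1195 of 27305 genes in the whole table of promoters (4.38%). A gene counted if any of its windows matched, and the 9 genes had 17 windows, more for each gene than in the whole table. Of the 35116 windows in the whole table, 3.57% held the core. TAP1 and TAPBP each hold 2 overlapping matches. The stretches below run 5′ to 3′ on the strand of the gene with 20 bases on each side, and capitals mark the matched bases.
TAP1 (chr6:32853803-32853858, minus strand): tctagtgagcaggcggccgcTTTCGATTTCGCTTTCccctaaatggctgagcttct
TAP2 (chr6:32838768-32838817, minus strand): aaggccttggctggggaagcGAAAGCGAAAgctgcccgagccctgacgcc
TAPBP (chr6:33314063-33314118, minus strand): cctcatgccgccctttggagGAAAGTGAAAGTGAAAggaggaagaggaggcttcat
ERAP1 (chr5:96807914-96807963, minus strand): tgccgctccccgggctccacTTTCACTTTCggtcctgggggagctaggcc
ERAP2 (chr5:96876450-96876499, plus strand): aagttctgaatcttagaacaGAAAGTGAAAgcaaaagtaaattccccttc

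The ER stress response element, searched as CCAAT, any 9 bases and CCACG on both strands, was in windows of CALR and CANX and in windows of 25 of 27305 genes (0.0916%). This element is known for driving chaperone genes when unfolded protein accumulates. The windows of TAPBPL and LNPEP held none of the motifs searched. The ER stress elements are shown in the same way.
CALR (chr19:12938364-12938422, plus strand): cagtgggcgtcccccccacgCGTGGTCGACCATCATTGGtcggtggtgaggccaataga
CANX (chr5:179698758-179698816, plus strand): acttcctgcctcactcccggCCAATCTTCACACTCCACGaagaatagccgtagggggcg

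The TAP1 window also held an NF-kappaB site, the second run of capitals in it, whose 10 letters were searched on both strands and found in windows of 62 of 27305 genes (0.227%). The whole window is printed because it carries both kinds of element upstream of 1 start (chr6:32853655-32853954, minus strand, with matches to the searched motifs in capitals).
TAP1 window: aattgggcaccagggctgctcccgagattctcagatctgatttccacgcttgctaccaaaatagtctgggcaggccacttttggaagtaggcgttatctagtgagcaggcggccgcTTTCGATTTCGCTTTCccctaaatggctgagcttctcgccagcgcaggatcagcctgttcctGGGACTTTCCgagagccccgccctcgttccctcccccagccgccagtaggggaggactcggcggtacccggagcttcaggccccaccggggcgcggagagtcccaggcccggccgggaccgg
A match describes these letters in these windows, and binding was not measured.

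Both peptide-trimming aminopeptidases of the endoplasmic reticulum fell in IRF1-KO libraries, and with edgeR's quasi-likelihood test they were the 2 of the 10 genes called. DESeq2 called these and 4 more, TAP1, TAP2, TAPBP and TAPBPL. Of all 13388 tested genes, edgeR called 0.112% lower and DESeq2 0.964%. ERAP2 trims peptides with basic ends in particular (ENSG00000164308.16, chromosome 5, 96875939 to 96919716, plus strand, GRCh38). It had 7.25, 7.26 and 6.25 CPM in IRF1-KO replicates 1 to 3, against 24.0, 23.2 and 22.4 CPM in WT replicates 1 to 3. Every IRF1-KO library lay below every WT library, and the means were 6.92 ± 0.579 CPM in IRF1-KO and 23.2 ± 0.786 CPM in WT (SD, n = 3 each). This was a log2 fold change of −1.74 ± 0.14 (SE; edgeR quasi-likelihood, adjusted p = 0.00737), with the IRF1-KO mean at 29.8% of the WT mean. In bulk RNA, here and below, fewer expressing cells and less RNA per cell cannot be told apart. These values rest on 119 to 208 reads in IRF1-KO and 427 to 466 reads in WT libraries.

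ERAP1, which trims long peptide precursors to the length the groove accepts, lies beside ERAP2 in head-to-head orientation (ENSG00000164307.13, chromosome 5, 96760810 to 96808100, minus strand), 67838 bases away with no gene of the table between them. It had 86.6, 90.1 and 89.5 CPM in IRF1-KO replicates, against 173, 178 and 154 CPM in WT replicates. The groups did not overlap, and the coefficient of variation was 2.09% in IRF1-KO, the lowest of the 10 genes, and 7.60% in WT. ERAP1 had a log2 fold change of −0.92 ± 0.10 (SE; edgeR quasi-likelihood, adjusted p = 0.0227), a level of 52.7% of the WT mean. ERAP1 shares 299 exon bases, 3.76% of its exon length, with CAST on the opposite strand. CAST, which encodes a calpain inhibitor, had 513, 410 and 489 CPM in IRF1-KO and 634, 697 and 543 CPM in WT libraries, without overlap (log2 fold change −0.41 ± 0.14, SE; edgeR quasi-likelihood, adjusted p = 0.397), and its part in the ERAP1 values was not tested.

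LNPEP, an aminopeptidase of endosomes that trims cross-presented peptides, is the next gene after ERAP2 on the same strand (ENSG00000113441.16, chromosome 5, 96935394 to 97037513), 15677 bases on. It had 154, 123 and 132 CPM in IRF1-KO replicates, against 137, 176 and 165 CPM in WT replicates. The groups overlapped, since IRF1-KO replicate 1 lay above WT replicate 1. LNPEP had a log2 fold change of −0.22 ± 0.14 (SE) with a 95% interval of −0.54 to 0.10 (edgeR quasi-likelihood, adjusted p = 0.718). The upper ends of the intervals of ERAP1 and ERAP2 were −0.69 and −1.41, both below the lower end for LNPEP.

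For the 4 genes of the peptide transporter and the tapasin family, all IRF1-KO values lay below all WT values, as in 6.75% of tested genes. With edgeR and limma-voom 0 of them passed the adjusted test, while DESeq2 called 4 and 4 had an unadjusted p under 0.05. Of all tested genes, DESeq2 called 0.964% lower, and 3.75% were lower at an unadjusted p under 0.05 (edgeR). TAP1, a subunit of the transporter, lies in the class II region of the MHC (ENSG00000168394.11, chromosome 6, 32845209 to 32853978, minus strand). It had 35.8, 68.0 and 42.2 CPM in IRF1-KO replicates 1 to 3, against 105, 128 and 122 CPM in WT replicates 1 to 3. IRF1-KO replicate 2 stood apart from the other IRF1-KO libraries but still below every WT library. TAP1 had a log2 fold change of −1.28 ± 0.24 (SE; edgeR quasi-likelihood, adjusted p = 0.134), a level of 41.2% of the WT mean. Leaving out IRF1-KO replicate 2 gave −1.60, past the threshold (edgeR quasi-likelihood, adjusted p = 0.0345), in a fit that called 0.0888% of 13513 genes lower. Over the 14 alternatives tried, adjusted p lay between 4.07e-05 (DESeq2) and 0.451.

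TAP2, the partner subunit (ENSG00000204267.14, chromosome 6, 32821833 to 32838770, minus strand), had 57.5, 80.5 and 62.1 CPM in IRF1-KO replicates, against 141, 119 and 110 CPM in WT replicates. Its log2 fold change was −0.89 ± 0.16 (SE; edgeR quasi-likelihood, adjusted p = 0.127), a level of 54.0% of the WT mean. As in TAP1, IRF1-KO replicate 2 was the highest of the IRF1-KO libraries. The ratio of TAP1 to TAP2 within a library did not separate the groups, with a log2 ratio of −0.49 ± 0.23 in IRF1-KO and −0.06 ± 0.32 in WT (SD, n = 3 each; exact permutation test, two-sided, p = 0.20).

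TAPBP encodes tapasin, which bridges class I molecules to the transporter (ENSG00000231925.11, chromosome 6, 33299694 to 33314387, minus strand). It had 125, 187 and 139 CPM in IRF1-KO replicates, against 249, 306 and 223 CPM in WT replicates. The gap between the groups ran from 187 CPM in the highest IRF1-KO library to 223 CPM in the lowest WT library. Relative to the level of TAPBP, this gap was narrower than in TAP1. The log2 fold change was −0.79 ± 0.19 (SE; edgeR quasi-likelihood, adjusted p = 0.199).

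TAPBPL encodes TAPBPR, a tapasin-related protein that edits the peptides bound to class I molecules outside the loading complex (ENSG00000139192.12, chromosome 12, 6451690 to 6466517, plus strand). It had 2.74, 3.25 and 3.03 CPM in IRF1-KO replicates, against 7.77, 6.74 and 7.02 CPM in WT replicates. The log2 fold change was −1.25 ± 0.21 (SE; edgeR quasi-likelihood, adjusted p = 0.104), a level of 41.9% of the WT mean. These are low counts, with 45 to 93 reads in IRF1-KO and 124 to 146 reads in WT libraries. TAPBPL shares 339 exon bases, 10.6% of its exon length, with VAMP1 on the opposite strand and 29 exon bases with CD27. VAMP1 had a log2 fold change of −0.04 ± 0.21 (SE) with overlapping groups. CD27 had 2.80, 3.00 and 2.58 CPM in IRF1-KO and 3.56, 4.79 and 3.80 CPM in WT libraries, a log2 fold change of −0.53 ± 0.25 (SE) without overlap, and their part in the TAPBPL values was not tested.

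**Figure D1:**
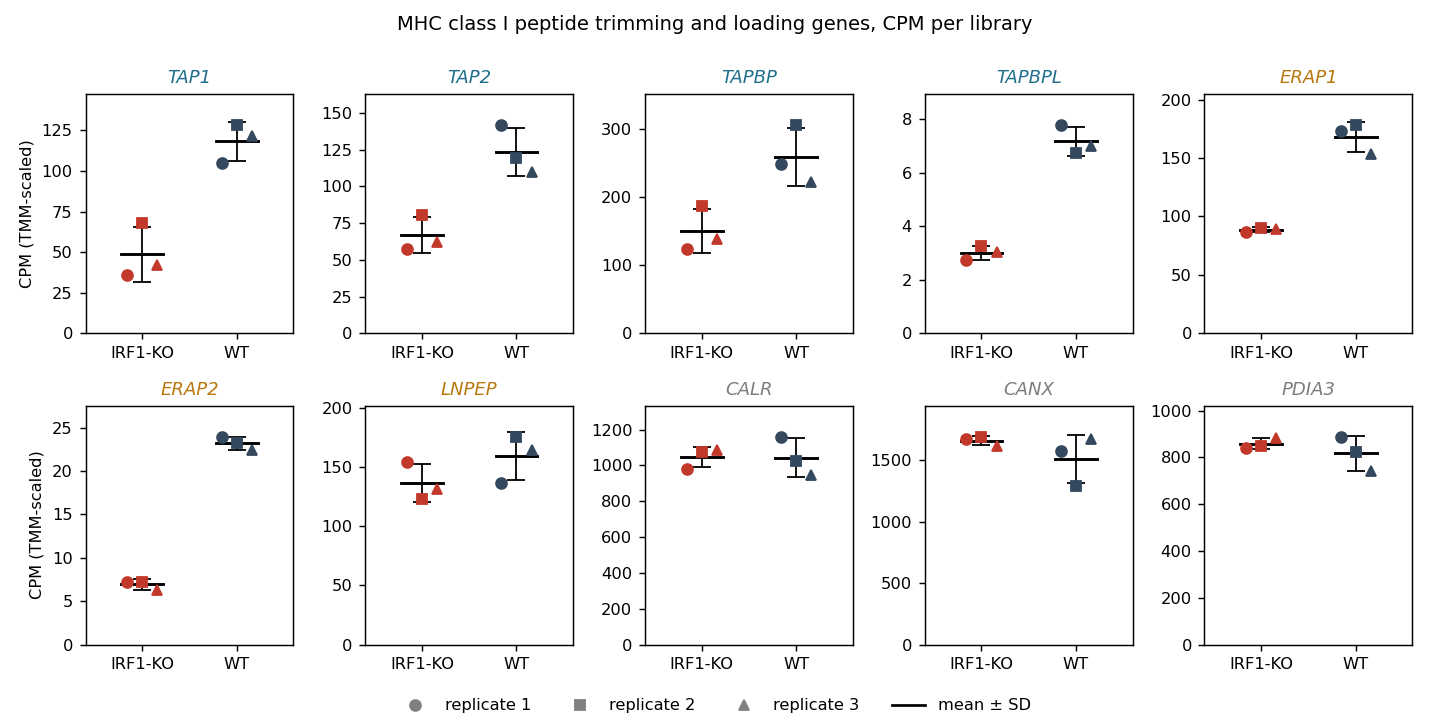
TMM-scaled CPM of the 10 genes in each library, with IRF1-KO left of WT, a symbol for each replicate and the mean ± SD in black. ERAP2 lies at 6.25 to 7.26 CPM in IRF1-KO and 22.4 to 24.0 CPM in WT, whereas the groups overlap in LNPEP, CALR, CANX and PDIA3.

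Of the 3 general chaperones 0 differed past the test with edgeR, DESeq2 or limma-voom, and 0 had an unadjusted p under 0.05. Over all 13388 tested genes, edgeR called 0.112% lower and 0.0149% higher, DESeq2 0.964% and 1.52%, and limma-voom 16 and 2 genes. At an unadjusted p under 0.05 (edgeR), 3.75% were lower and 5.39% higher. With shares this small, 0 calls among 3 genes does not set the chaperones apart from other genes. CALR, the calcium-binding lectin calreticulin (ENSG00000179218.13, chromosome 19, 12938578 to 12944489, plus strand), had 982, 1075 and 1087 CPM in IRF1-KO replicates, against 1161, 1025 and 948 CPM in WT replicates. The WT range enclosed the IRF1-KO range. CALR had a log2 fold change of 0.00 ± 0.12 (SE), with a 95% interval of −0.26 to 0.27, and its sign changed when single libraries were left out (−0.04 to 0.11).

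CANX, the membrane-bound lectin calnexin that receives new class I heavy chains (ENSG00000127022.15, chromosome 5, 179678628 to 179731641, plus strand), had 1673, 1691 and 1615 CPM in IRF1-KO replicates, against 1571, 1288 and 1668 CPM in WT replicates. WT replicate 3 fell within the IRF1-KO range, and the log2 fold change was 0.14 ± 0.12 (SE) with an interval of −0.15 to 0.42. PDIA3, the oxidoreductase ERp57 that is disulfide-bonded to tapasin (ENSG00000167004.13, chromosome 15, 43746410 to 43773278, plus strand), had 842, 851 and 884 CPM in IRF1-KO replicates, against 889, 822 and 741 CPM in WT replicates. Its log2 fold change was 0.07 ± 0.11 (SE) with an interval of −0.18 to 0.32. The 3 intervals leave room for levels between 83.3% and 134% of WT. PDIA3 shares 622 exon bases, 14.7% of its exon length, with ELL3 on the opposite strand, which had 2.68 to 5.45 CPM in IRF1-KO and 2.96 to 5.06 CPM in WT libraries. CANX shares 150 exon bases with CBY3, which had at most 2 reads in any library.

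**Figure D2:**
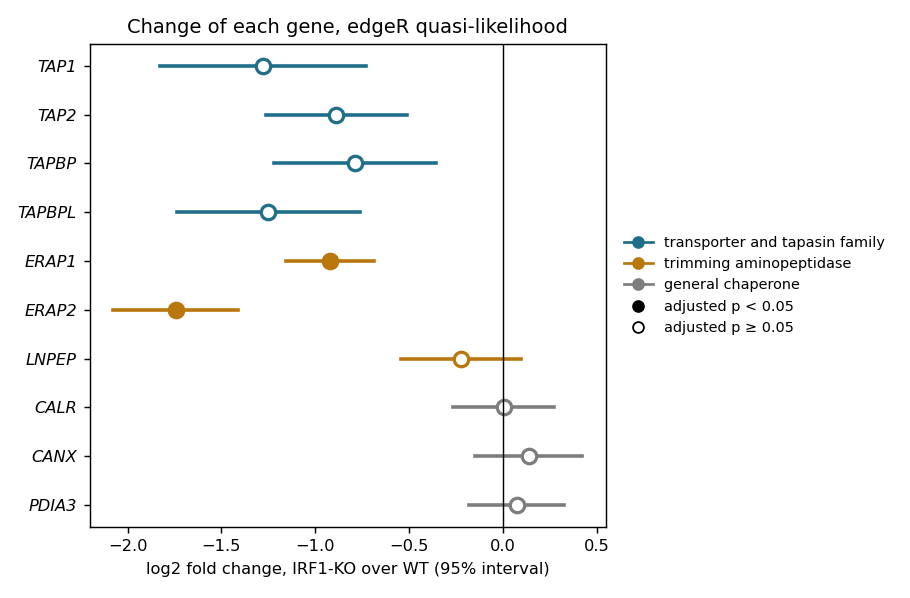
Log2 fold change of each gene in IRF1-KO over WT with its 95% interval, coloured by role, with filled points for an adjusted p under 0.05. ERAP1 (−0.92) and ERAP2 (−1.74) are filled, and the intervals of LNPEP, CALR, CANX and PDIA3 include 0.

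Counted over the 10 genes, 2 were lower and 0 higher at an adjusted p under 0.05 (edgeR quasi-likelihood), against 0.112% of 13388 tested genes called lower and 0.0149% called higher. At an unadjusted p under 0.05, 6 of the 10 were lower and 0 higher, against 3.75% and 5.39% of all tested genes. DESeq2 called the same 6 lower, TAP1, TAP2, TAPBP, TAPBPL, ERAP1 and ERAP2, and 0 higher, against 0.964% and 1.52% of tested genes. With limma-voom 2 were lower and 0 higher, against 16 lower and 2 higher among the 13388 tested genes. The 6 genes called by DESeq2 were also the ones whose groups did not overlap, with the IRF1-KO values lower, as in 6.75% of tested genes. Of the 10, 0 were higher without overlap, against 8.03% of tested genes. The 10 genes were chosen with earlier results of these data known, so these shares are a description and not independent support. Medians of the log2 fold change were −0.92 for the 7 dedicated genes, 0.07 for the 3 chaperones and −0.02 for all tested genes. The 7 include the endosomal enzyme LNPEP, at −0.22 with overlapping groups. The ERAP1 call held in the fit that left out WT replicate 3, where 0.267% of 13503 genes were lower. It was lost in the other 5 fits that left out a library (edgeR quasi-likelihood, adjusted p from 0.0664 to 0.183), with log2 fold changes of −0.94 to −0.88. The ERAP2 call was lost without IRF1-KO replicate 1, IRF1-KO replicate 3 or WT replicate 2 (adjusted p from 0.0586 to 0.0711), with log2 fold changes of −1.76 to −1.68.

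Set against each other within a library, the median of the dedicated genes, LNPEP included, lay below that of the chaperones in IRF1-KO. Each gene was expressed as log2 CPM relative to its WT mean, and the median of the 3 chaperones was subtracted from the median of the 7 dedicated genes. This gave −1.14, −0.86 and −1.09 in IRF1-KO replicates 1 to 3, against −0.08, 0.10 and 0.09 in WT replicates 1 to 3. The summed level of the 7 dedicated genes was 469, 560 and 474 CPM in IRF1-KO replicates and 837, 937 and 803 CPM in WT replicates. The summed level of the 3 chaperones was 3497, 3617 and 3586 CPM in IRF1-KO replicates and 3621, 3135 and 3357 CPM in WT replicates, and these ranges overlap.

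Ratios of single genes within a library, which do not depend on how libraries are scaled, gave the same order. Tapasin against its disulfide partner PDIA3 had a log2 ratio of −2.54 ± 0.31 in IRF1-KO and −1.66 ± 0.21 in WT (SD, n = 3 each). Tapasin against CALR stood at −2.82 ± 0.26 in IRF1-KO and −2.02 ± 0.25 in WT. Neither ratio overlapped between groups. PDIA3 against CALR stood at −0.29 ± 0.06 in IRF1-KO and −0.35 ± 0.03 in WT, a difference of 0.07, and CALR against CANX differed by −0.14, with overlapping groups in both.

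Among the aminopeptidases, ERAP2 was lower than ERAP1 by more in IRF1-KO than in WT. The log2 ratio of ERAP2 to ERAP1 was −3.67 ± 0.14 in IRF1-KO and −2.85 ± 0.08 in WT (SD, n = 3 each), without overlap. ERAP1 to LNPEP was −0.61 ± 0.20 in IRF1-KO and 0.09 ± 0.23 in WT. ERAP2 to LNPEP was −4.28 ± 0.18 in IRF1-KO and −2.77 ± 0.23 in WT, the widest difference of the 10 pairs at −1.51. TAP1 was compared with PSMB9, an immunoproteasome subunit gene on the opposite strand. In the deposited table the span of PSMB9 encloses TAP1 without sharing exon bases. The RefSeq promoter window of PSMB9 (chr6:32853942-32854241, plus strand) overlaps the upstream end of the TAP1 window printed above. The PSMB9 window held none of the motifs searched, so the overlap does not include the TAP1 matches. The log2 ratio of TAP1 to PSMB9 was 2.79 ± 0.41 in IRF1-KO and 1.45 ± 0.23 in WT, so PSMB9 was lower by more than TAP1. In 10 pairs tested, 6 had groups that did not overlap, each at an exact permutation p of 0.10 (two-sided), which is the smallest that 3 libraries against 3 allow, and 0.167 after Benjamini-Hochberg adjustment over the 10 pairs.

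**Figure D3:**
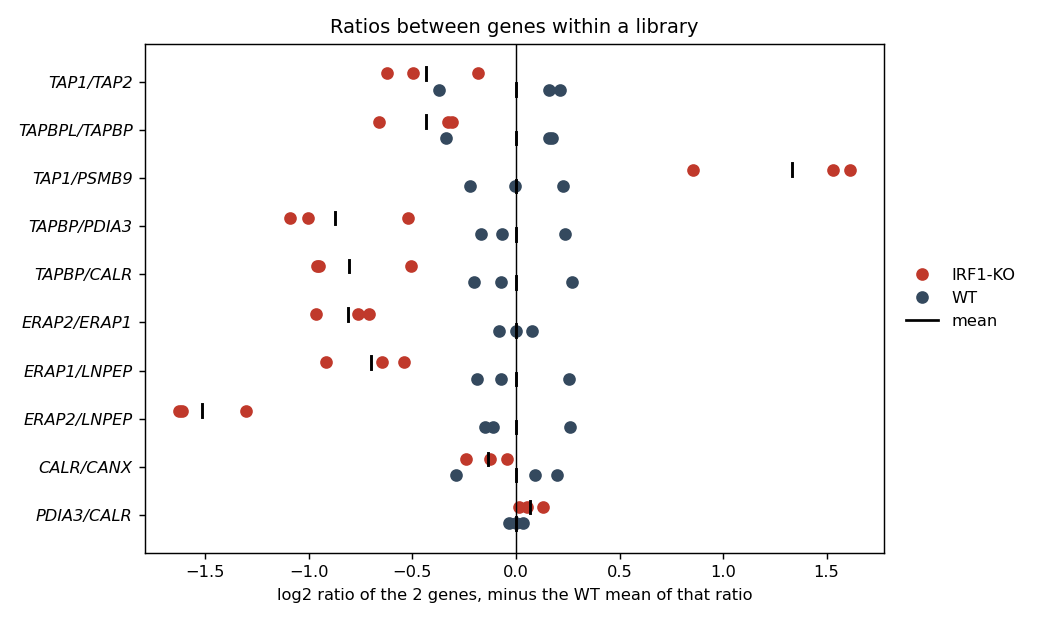
Log2 ratio of 2 genes in each library, shifted so that the WT mean of the ratio is 0, with IRF1-KO points above WT points in each row and means as black bars. The ERAP2 to LNPEP ratio differs by −1.51 between the groups and the PDIA3 to CALR ratio by 0.07.

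Levels between genes were compared as CPM per kb of exon, taking all exons of a gene in the file, so that a gene transcribed mainly as a short isoform reads too low. In IRF1-KO libraries the 3 chaperones stood highest, at 386 ± 21.2 CPM per kb for CALR, 239 ± 5.73 CPM per kb for CANX and 204 ± 5.25 CPM per kb for PDIA3 (SD, n = 3 each), none overlapping. Tapasin came next at 29.7 ± 6.47 CPM per kb. ERAP1, TAP2, TAP1 and LNPEP then lay together at 11.2 ± 0.234, 10.5 ± 1.91, 10.1 ± 3.54 and 9.12 ± 1.07 CPM per kb, each overlapping its neighbour. TAPBPL and ERAP2 stood lowest at 0.943 ± 0.0792 and 0.933 ± 0.0780 CPM per kb, with overlapping ranges.

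In WT libraries CALR again stood highest at 385 ± 39.7 CPM per kb, with CANX at 217 ± 28.4 CPM per kb and PDIA3 at 194 ± 17.5 CPM per kb overlapping below it. Tapasin was the fourth at 51.3 ± 8.38 CPM per kb. TAP1, ERAP1 and TAP2 formed a band of 24.6 ± 2.49, 21.2 ± 1.61 and 19.4 ± 2.56 CPM per kb, with neighbours overlapping. LNPEP stood apart below this band at 10.6 ± 1.35 CPM per kb, unlike in IRF1-KO libraries. ERAP2 and TAPBPL came last at 3.13 ± 0.106 and 2.25 ± 0.167 CPM per kb, without overlap.

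**Figure D4:**
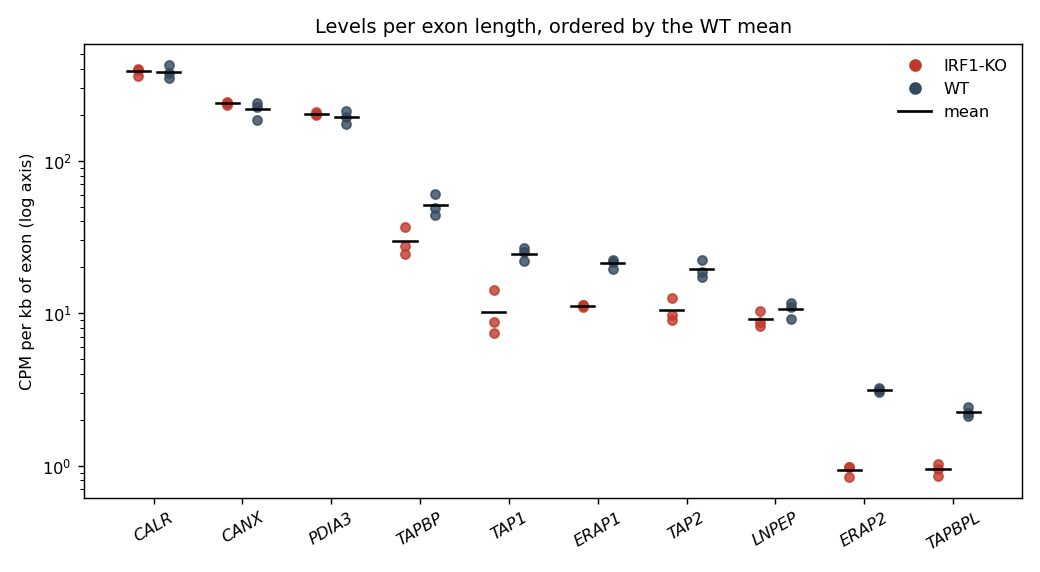
CPM per kb of exon on a log axis for each library, with IRF1-KO left of WT, genes ordered by their WT mean and means as black bars. CALR is at 386 CPM per kb in IRF1-KO and 385 CPM per kb in WT, and ERAP2 is at 0.933 CPM per kb in IRF1-KO and 3.13 CPM per kb in WT.

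Within the IRF1-KO group, replicate 2 held the highest value for 7 of the 10 genes, which were TAP1, TAP2, TAPBP, TAPBPL, ERAP1, ERAP2 (7.26 CPM against 7.25 CPM in replicate 1) and CANX. Over all tested genes replicate 2 was the highest IRF1-KO library in 36.8%. The coefficient of variation in IRF1-KO was 35.0% for TAP1, 21.8% for TAPBP, 18.2% for TAP2, 11.7% for LNPEP, 8.39% for TAPBPL, 8.36% for ERAP2, 5.48% for CALR, 2.58% for PDIA3, 2.40% for CANX and 2.09% for ERAP1. In WT libraries the 10 genes varied by 3.39% to 16.3%, and the difference in spread between genes was not tested. Of the 7 class I chain and B2M genes, 5 also had their highest IRF1-KO value in replicate 2. So did 6 of the 8 epithelial markers, and the part of these in the spread was not tested.

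Genes upstream and downstream of peptide loading were described as lists. Of 6 immunoproteasome and activator genes, 3 fell, PSMB9, PSME1 and PSME2, and 0 were higher (edgeR quasi-likelihood), with a median log2 fold change of −1.06. The same list had 5 lower and 0 higher genes by DESeq2, 3 lower by limma-voom, and 5 lower at an unadjusted p under 0.05. Of all 13388 tested genes, edgeR called 0.112% lower, DESeq2 0.964% and limma-voom 16 genes. At an unadjusted p under 0.05 (edgeR), 3.75% were lower. PSMB9, which cuts peptides that suit class I grooves, had a log2 fold change of −2.61 ± 0.24 (SE), against −1.06 ± 0.10 for each of the activator genes PSME1 and PSME2. The 7 class I chain and B2M genes all lay lower in every IRF1-KO library, as did 6.75% of tested genes, with a median of −1.27. With edgeR and limma-voom 0 of them were called, DESeq2 called 6, and 7 had an unadjusted p under 0.05. B2M, the light chain shared by all class I molecules, had the smallest p of these at a log2 fold change of −0.91 ± 0.15 (SE; edgeR quasi-likelihood, adjusted p = 0.0978), and reads of HLA genes can be shared among near-identical copies.

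The regulators of class I transcription lay on both sides of 0. Their median was 0.00 over 10 genes, with 0 called by edgeR or limma-voom, 4 lower and 1 higher at an unadjusted p of 0.05, and 2 lower and 1 higher by DESeq2, the higher gene being IRF1 itself both times. Of all tested genes, 3.75% were lower and 5.39% higher at that unadjusted p (edgeR), and 0.964% and 1.52% by DESeq2.

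Over 10 cytosolic peptidases the median was −0.02, and THOP1, which degrades peptides before they reach the transporter, had the smallest p at 0.61 ± 0.13 (SE; edgeR quasi-likelihood, adjusted p = 0.165). In 8 tested relatives of the M1 aminopeptidase family, to which ERAP1, ERAP2 and LNPEP belong, the median was −0.27, with TRHDE at 0.43 ± 0.10 (adjusted p = 0.179). With edgeR and limma-voom 0 genes of either list were called, and DESeq2 called 1 higher in each, against 1.52% of all tested genes. At an unadjusted p under 0.05 the peptidases had 1 lower and 1 higher, and the relatives 2 lower and 1 higher. Of all tested genes 3.75% were lower and 5.39% higher at that p (edgeR). Of 16 ER chaperones and folding enzymes 0 were called by edgeR, DESeq2 or limma-voom and 0 were at an unadjusted p under 0.05, with a median of −0.02 and a range of −0.38 to 0.28. Their smallest p belonged to TXNDC5, a disulfide isomerase, at 0.26 ± 0.11. Glycoprotein quality control showed 0 calls by any of the 3 tools and 0 genes at an unadjusted p under 0.05 among 13 genes, with a median of 0.03 and PRKCSH, a subunit of glucosidase II, at 0.26 ± 0.12. ER exit and class I trafficking showed 0 calls among 13 genes by any of the 3 tools, 1 gene higher at an unadjusted p of 0.05, a median of −0.02 and SEC61B, a subunit of the ER translocon, at 0.39 ± 0.13 (SE). The chaperones of the loading complex, with values from 0.00 to 0.14, lay inside the range of the other ER chaperones.

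**Figure D5:**
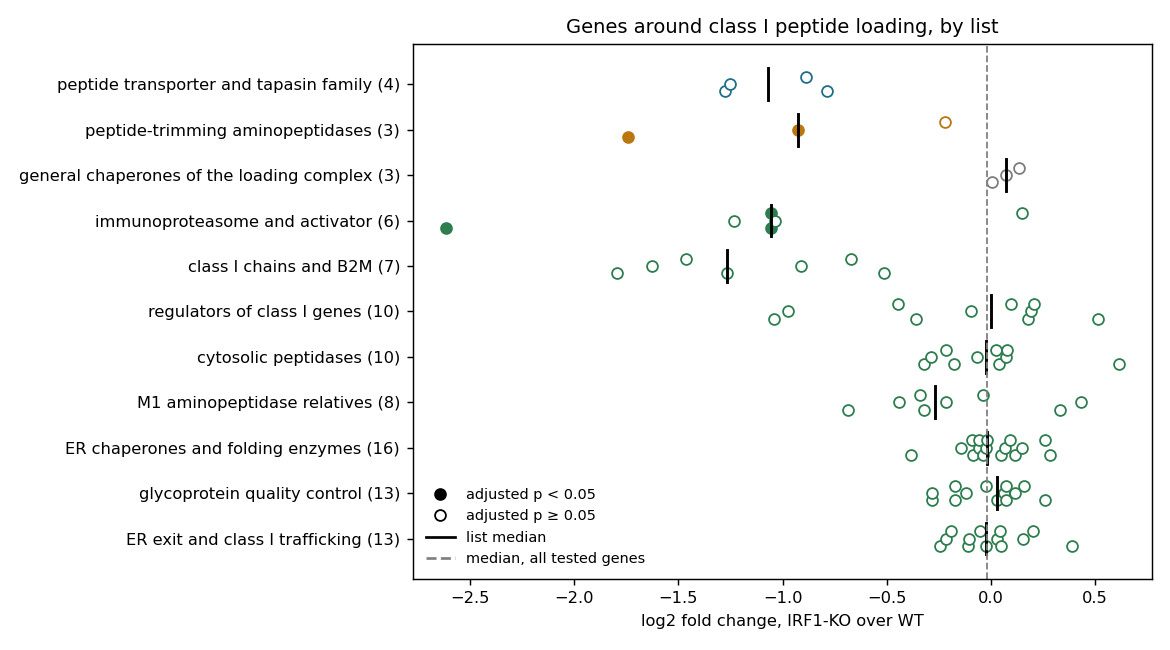
Log2 fold change in IRF1-KO over WT of each tested gene, by list with the number tested, filled where the adjusted p is under 0.05, with list medians as black bars and the median of all tested genes (−0.02) as a dashed line. Transporter and tapasin genes, immunoproteasome genes and class I chains have medians of −1.07, −1.06 and −1.27, and ER chaperones one of −0.02.

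Profiles over the 6 libraries were compared as log2 CPM centred on the WT mean, by the root mean square difference between genes, among 12090 other genes with a mean of at least 2 CPM. Nearest to TAP1 were IFITM1 (difference 0.11), OAS3 (0.12) and IFIH1 (0.15), which encode an antiviral membrane protein, an oligoadenylate synthetase and an RNA sensor. Each of them had its highest IRF1-KO value in replicate 2, as TAP1 did. Choosing them by nearness to TAP1 over these same libraries favours this, so it is no separate finding. Nearest to ERAP2 were TLR3 (0.17), IL15RA (0.20) and GBP3 (0.25), which encode a double-stranded RNA sensor, an interleukin-15 receptor chain and an interferon-inducible GTPase. The likeness is a description of these libraries and reflects the group difference and the spread together.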

How the data were processed

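Poly(A) RNA of 6 CFPAC1 libraries was sequenced. The deposited table holds raw counts per gene. The submitters' processing notes name featureCounts 0.6.1, edgeR 3.2.2 and GRCh38 (hg38). The sources used here do not state an aligner, annotation or strand setting, so reads from exons that overlap on opposite strands cannot be told apart. The members and gene lists were chosen with earlier results of these data known.

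Symbols came from current gene names for 19342 identifiers and from GENCODE 29 for 56 more. The 13388 genes kept by filterByExpr were scaled by TMM and fitted with robust quasi-likelihood in edgeR 4.0.16 (R 4.3.3), without a block. Tests were two-sided, p was adjusted by Benjamini and Hochberg over all of these genes, and calls needed an adjusted p under 0.05. Intervals of fold changes are at 95%. Ratios and profiles used log2 CPM with a prior count of 2. Nothing in the labels says that the libraries of a group came from separate pools or separate cultures. The tests see only the spread between these libraries, which may be technical. Counts of replicates differed by more than sampling noise (chi-square per degree of freedom 25.8 to 55.0). The settings tried instead were RLE factors, upper-quartile factors, no filter, a stricter filter (5 CPM in 3 libraries), DESeq2 1.42.0, limma-voom 3.58.1, a replicate block, a GC-content spline (13383 genes) and each library left out.

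Counts were simulated for the 13388 genes of the IRF1-KO over WT comparison, with 50 genes changed at each fold. The edgeR test found 16% of those changed 1.5-fold, 64% of those changed 2-fold, 96% of those changed 4-fold and 98% of those changed 8-fold, with 23 false calls, while DESeq2 found 32%, 78%, 96% and 100%, with 50 false calls. Genes named are the 10 members, IRF1, the partners in ratios, genes with exons shared with a member, the 3 profiles nearest to TAP1 and to ERAP2, and from each other list up to 4 called genes, or the 1 with the lowest p where there was no call. Some genes that this rule or the marker lists hold are not reported here.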

Additional observations from a re-analysis of the deposited data

How the results depend on the processing

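All 10 genes but CALR kept their direction over the 14 alternatives. So did the 10 ratios with each library left out or with a prior count of 0.5. The 3 medians by role moved by less than 1 SD of their library medians within groups. That SD was 0.201 for the transporter and tapasin family, 0.0527 for the aminopeptidases and 0.0948 for the chaperones. The aminopeptidase median was the ERAP1 value in every setting, so it describes ERAP1 alone. CALR, at 0.00, ranged from −0.04 to 0.11 and was below 0 without IRF1-KO replicate 2 (−0.0141), IRF1-KO replicate 3 (−0.0226), WT replicate 2 (−0.0097) or WT replicate 3 (−0.0387). The number of members lower at the threshold, 2, was 6 with DESeq2 and 1 with the replicate block, where ERAP1 stood at −0.92 with an adjusted p of 0.0618 and ERAP2 at −1.75 with one of 0.0341, and 0 to 2 with a library left out. Of all tested genes 15 were lower and 2 higher. The lower count was 26 with no filter, 129 with DESeq2, 27 with the replicate block and 3 to 36 with a library left out, with 36 reached without WT replicate 3. The higher count was 5 with no filter, 4 with the stricter filter, 203 with DESeq2, 4 with the replicate block, 0 with the GC correction and 0 to 55 with a library left out. The 55 was likewise reached without WT replicate 3. The cause was not tested. Same-numbered libraries correlated in their deviations at −0.015, 0.253 and 0.057, so the numbers were not taken as pairs. With the GC correction 15 genes were lower, ERAP1 (−0.87, adjusted p = 0.0418) and ERAP2 (−1.70, adjusted p = 0.00754) among them, over alternatives with an adjusted p from 1.45e-12 to 0.183 for ERAP1 and from 1.71e-19 to 0.0711 for ERAP2. TAPBPL and ERAP2 rest on the fewest reads of the 10.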
